A study of Homo sapiens with 2 samples.

Results

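HOX genes encode homeodomain transcription factors that lie in 4 clusters, HOXA to HOXD, and are numbered 1 to 13 by their place in the cluster. They were examined here in hypoxic PLC/PRF/5 cells, a line established from a human liver tumour (hepatocellular carcinoma). Of 39 HOX symbols in the expression table, 32 had a row of their own and are the members described here, out of 24991 genes with such a row. The other 7 were found only in rows that several HOX genes share. RNA was sequenced in 1 library of cells with an empty vector (EV) and in 1 library of cells in which NFX1, a zinc-finger factor that binds DNA, was overexpressed. The comparison asks how these cells differ when NFX1 is raised during hypoxia. Cells of both libraries were under hypoxia, and no library from cells outside hypoxia was analysed here. The labels do not say whether the overexpressing cells are a clone or a pool.

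In the embryo, HOX genes are switched on in the order in which they lie, so that low-numbered (anterior) genes act toward the head and high-numbered (posterior) genes toward the tail and in the limbs. Polycomb complexes keep clusters silent and trithorax complexes keep them active, and the proteins bind DNA together with cofactors of the TALE class such as PBX and MEIS. Adult cells keep a partial pattern that reflects where in the body they came from, and tumour cells often hold a changed one. Genes with the same number in different clusters are paralogs with closely similar homeodomains.

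Values are FPKM, fragments scaled to transcript length and library depth, which allows levels of different genes to be compared. Low values moved in steps of whole fragments, from which the depth was estimated at 37.0 M fragments (vector) and 42.5 M fragments (NFX1), a ratio of 1.15. Intervals below are 95% exact intervals from fragments estimated in this way. They cover counting error only, and with 1 library per group there is no replicate check, no test and no p-value. NFX1 itself had 4.21 FPKM (vector) and 56.0 FPKM (NFX1). All 15 listed hepatocyte and hepatoma markers had at least 1 FPKM in a library, although albumin (ALB) had only 0.776 and 1.06 FPKM. The 6 fibroblast markers summed to at most 1.04 FPKM in a library and the 4 endothelial markers to 0.0587 FPKM, and of 6 blood markers PTPRC and CD3E were listed at 0 while CD68 had 48.9 and 52.6 FPKM and LYZ 49.2 and 47.9 FPKM. Where 2 values follow each other, the vector library comes first. In RNA from bulk cells, fewer cells with a transcript and less of it per cell cannot be told apart.

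Counting a gene as on at 1 FPKM or more in both libraries, 16 of the 32 members (50%) were on. The same level was reached by 55.9% of genes with a protein-coding transcript and by 43.5% of all genes with a row of their own, so HOX genes were about as often on as other genes. HOXB8 passed 1 FPKM in the NFX1 library alone. Of the remaining 15, 4 had at least 0.5 FPKM in both libraries and 11 stayed under 0.3 FPKM. Among these 11, HOXB1, HOXC11, HOXD3 and HOXD4 were listed at 0 in both libraries. The side of the 1 FPKM limit was the same in both libraries for 31 of 32 members. The count depends on the limit, with 21 members on in both libraries at 0.5 FPKM and 12 at 5 FPKM.

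**Figure D1:**
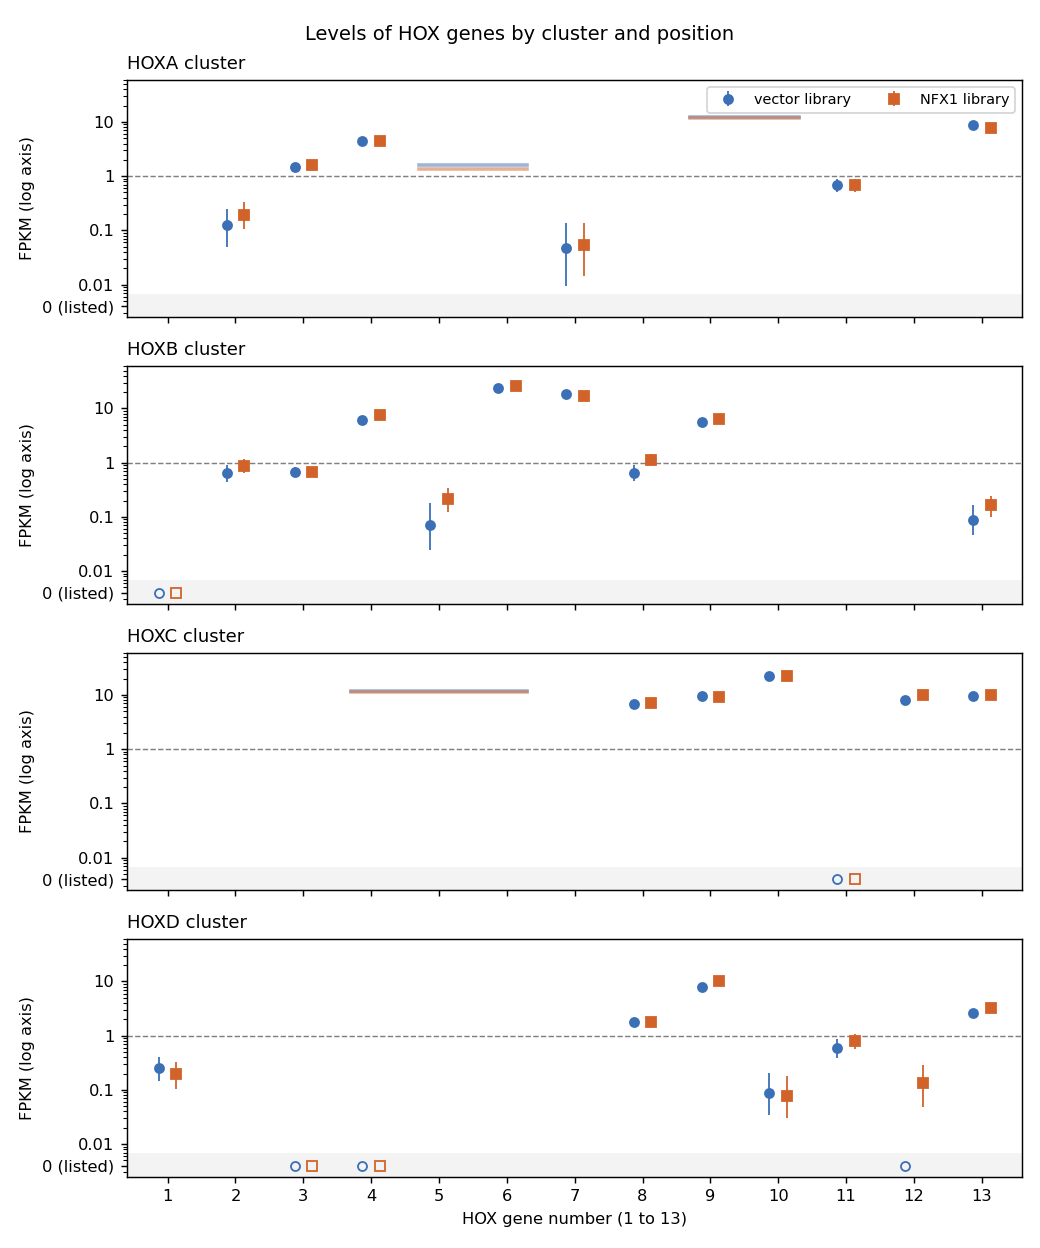
FPKM (log axis) of 31 HOX genes by cluster and gene number in the vector library (circles) and the NFX1 library (squares), with 95% counting intervals. Open symbols in the grey band are listed at 0, flat bars are rows shared by several genes, the dashed line is 1 FPKM, and the 5 HOXC genes that are on sit between 6.92 and 22.7 FPKM.

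By region of the cluster, 2 of 8 anterior members (numbers 1 to 3), 6 of 10 central members (4 to 8) and 8 of 14 posterior members (9 to 13) were on. Summed over members, anterior genes had 9.42 FPKM in the vector library, central genes 61.9 FPKM and posterior genes 75.6 FPKM. In the NFX1 library the sums were 8.80, 65.6 and 81.6 FPKM. These sums run over 8, 10 and 14 members, so they are not levels per gene. They also leave out the shared rows, all of which hold central or posterior genes. HOXB6, HOXC10 and HOXB7 alone made up 43.6% of the summed level of the 32 members in the vector library and 42.2% in the NFX1 library.

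The HOXC cluster (chromosome 12, 54329112 to 54449814, hg19) was the most fully on, with 5 of its 6 members. HOXC10 had 22.0 FPKM (vector) and 22.7 FPKM (NFX1). HOXC13, a regulator of hair and nail keratins, had 9.57 and 10.2 FPKM. HOXC9 had 9.51 and 9.35 FPKM, and HOXC12 8.14 and 9.89 FPKM. HOXC8 had 6.92 and 7.18 FPKM. All 5 lay above 5 FPKM in both libraries, which made HOXC11 the exception in the cluster. It was listed at 0 in both libraries, where a count of 0 allows up to 0.0270 FPKM (vector) and 0.0235 FPKM (NFX1), taking 3 fragments as the limit. None of 100 genes of the ribosome, RNA polymerase II and proteasome was listed at 0. These genes are used by every cell, so this does not test the 0 of HOXC11. HOXC11 has HOXC10 and HOXC12 as neighbours. The level of HOXC12 was at least 301-fold higher than that of HOXC11 in the vector library, and that of HOXC10 at least 815-fold higher.

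The HOXB cluster (chromosome 17, 46606807 to 46806111) had 4 of 10 members on in both libraries, 3 of them among its 5 central members. Of the central members, HOXB8 had 0.653 and 1.14 FPKM, and HOXB5 was lower still. HOXB6 had the highest level of all members, with 23.8 FPKM (vector) and 25.9 FPKM (NFX1). HOXB7 followed with 18.3 and 17.3 FPKM. HOXB4, which promotes expansion of blood stem cells, had 6.01 and 7.53 FPKM, and HOXB9 had 5.55 and 6.33 FPKM. HOXB5, which lies between HOXB4 and HOXB6, had 0.0707 and 0.215 FPKM, an estimated 5 and 16 fragments. HOXB6 was 336 times as high as HOXB5 in the vector library and 120 times as high in the NFX1 library. HOXB5 and HOXB6 lie in the same assembled interval (46667782 to 46683774), so this step falls inside 1 interval, where the split of fragments between overlapping genes is the authors' assignment. At the anterior end HOXB1 was listed at 0, HOXB2 had 0.638 and 0.877 FPKM, and HOXB3 had 0.678 and 0.669 FPKM, with overlapping intervals. HOXB2 and HOXB3 lie in 1 assembled interval (46620019 to 46651810), where the same limit applies. At the posterior end HOXB13 had 0.0890 and 0.164 FPKM.

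The HOXA cluster lies on chromosome 7. HOXA13, a gene of the distal limb and hindgut, had 8.71 and 7.87 FPKM. HOXA4 had 4.36 and 4.50 FPKM and HOXA3 1.48 and 1.62 FPKM. Some other members of the cluster were under 1 FPKM. HOXA2 had 0.127 and 0.190 FPKM, HOXA7 0.0471 and 0.0546 FPKM, and HOXA11 0.678 and 0.680 FPKM. HOXA7 lies in the same assembled interval (27179983 to 27196296) as HOXA5 and HOXA6. HOXA3 and HOXA4 share another interval (27145809 to 27170399), and HOXA13 shares one with the noncoding RNA HOTTIP (27225027 to 27246878). The split of fragments within each of these intervals is also the authors' assignment.

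The HOXD cluster (chromosome 2, 176957532 to 177055635) was the least active, with 3 of 9 members on. HOXD9 had 8.01 FPKM (vector) and 10.3 FPKM (NFX1). HOXD13, mutated in inherited fusion and duplication of digits, had 2.68 and 3.20 FPKM, and HOXD8 had 1.80 and 1.82 FPKM. HOXD10, next to HOXD9, had 0.0893 and 0.0777 FPKM, an estimated 6 fragments in each library. HOXD9 was 89.7 times as high in the vector library and 133 times as high in the NFX1 library. So few fragments leave these ratios uncertain. HOXD11 had 0.597 and 0.800 FPKM, HOXD12 was listed at 0 and had 0.132 FPKM, and HOXD1 had 0.257 and 0.196 FPKM. HOXD3 and HOXD4 were listed at 0 in both libraries.

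Across clusters, paralogs of number 9 with a row of their own were all on, with 3 of 3 members at 5.55 to 10.3 FPKM. Of number 13, 3 of 4 members were on. Of number 11, none of 3 reached 1 FPKM. Of numbers 2 and 5, none of the 2 and 1 members did. HOXA9, HOXA5 and HOXC5 lie in shared rows and are not counted here. The order of levels was much the same in both libraries. HOXB6, HOXC10 and HOXB7 ranked 1, 2 and 3 in each, and no gene among the 17 with at least 1 FPKM in a library moved by more than 4 ranks. Intervals of HOXB6 and HOXC10 overlapped in the vector library and not in the NFX1 library. Between HOXC13 and HOXB9 in the vector library, each gene's interval overlapped that of the next lower one. The order of neighbouring ranks there is therefore not resolved. HOXB6 lay at the 69.9th percentile of expressed genes and HOXD8 at the 10.7th.

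The 7 HOX genes without a row of their own lay in rows that were all above 1 FPKM. The row of HOXC4, HOXC5 and HOXC6 (54410636 to 54449814) had 11.8 FPKM (vector) and 11.2 FPKM (NFX1). That of HOXA9 and HOXA10 (27202057 to 27219880) had 12.1 and 11.98 FPKM, and that of HOXA5 and HOXA6 (27179983 to 27196296) 1.63 and 1.38 FPKM. Which gene of a row gave the fragments cannot be told from the table. With these rows counted for each of their genes, 23 of 39 HOX symbols were on.

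Noncoding RNAs of the clusters are transcribed between or across from HOX genes. Of 14 listed ones with a row, 7 had at least 1 FPKM in a library. HOTAIRM1, from the HOXA cluster, had 7.59 FPKM (vector) and 7.80 FPKM (NFX1). HOTTIP, which lies beyond HOXA13 and is known to recruit trithorax proteins, had 1.54 and 1.60 FPKM. HOXC13-AS had 6.36 and 6.86 FPKM, HOXD-AS2 1.63 and 2.39 FPKM, and HOXA-AS2 1.02 and 1.198 FPKM. HOXB-AS3 had 1.07 and 0.745 FPKM. HOTAIR, from the HOXC cluster and known to bind Polycomb proteins, had 0.0809 and 0.0121 FPKM and shares its interval with HOXC11. HOXC-AS3, in the interval of HOXC10, was listed at 0 with the vector and had 1.24 FPKM with NFX1, the only gene of its list 1.5-fold apart on the FPKM + 1 scale. HOXC-AS1 and HOXC-AS2 share a row with 6.17 and 9.43 FPKM in the interval of HOXC9. The sources used here do not say whether the libraries kept strand, so reads of an antisense RNA and of its partner cannot be told apart.

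Because homeoboxes are alike, shared sequence was measured between the longest protein-coding transcripts of the 39 genes in GENCODE release 29. The longest identical run had a median of 15 bases over 741 pairs. HOXB3 and HOXD3 shared the longest run, 62 bases, and HOXB6 and HOXB7 shared 51 bases. HOXD3 was listed at 0 in both libraries. HOXB3 had only an estimated 99 and 112 fragments over 4208 bases, too few for this pair to show misplaced fragments. Whether fragments were assigned to the wrong paralog was not tested.

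Promoter windows of 300 bases (RefSeq, GRCh38.p14, around transcript starts) were found for 15 of the 32 members. They held a median of 23 CG dinucleotides over 21 windows, against 14 over all 35116 windows. The median was 24 over the 11 windows of members that were on and 21 over the 10 windows of those that were not, with wide ranges of 0 to 44 and 4 to 36. The 11 windows of members that were on come from 5 genes, and 7 of these windows belong to HOXA3. HOXC members had no window, and of HOXB members only HOXB1 had one. The comparison therefore leaves out HOXB6, HOXC10 and HOXB7, the members with the highest levels. The motif TATAAA, searched on both strands, was in 2 of the 21 windows (9.52%) and in 11.5% of all windows. The windows of HOXA13 (chr7:27200042-27200341, minus strand) and HOXA7 (chr7:27156626-27156925, minus strand) are shown as a pair from the same cluster that was on and not on. CG dinucleotides are in capitals.
HOXA13: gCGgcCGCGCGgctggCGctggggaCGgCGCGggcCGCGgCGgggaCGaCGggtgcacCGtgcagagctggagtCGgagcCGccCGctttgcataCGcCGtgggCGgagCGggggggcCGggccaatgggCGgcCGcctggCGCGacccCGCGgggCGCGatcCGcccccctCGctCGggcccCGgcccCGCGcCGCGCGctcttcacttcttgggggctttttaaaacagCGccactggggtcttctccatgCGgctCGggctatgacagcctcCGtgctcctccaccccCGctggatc
HOXA7: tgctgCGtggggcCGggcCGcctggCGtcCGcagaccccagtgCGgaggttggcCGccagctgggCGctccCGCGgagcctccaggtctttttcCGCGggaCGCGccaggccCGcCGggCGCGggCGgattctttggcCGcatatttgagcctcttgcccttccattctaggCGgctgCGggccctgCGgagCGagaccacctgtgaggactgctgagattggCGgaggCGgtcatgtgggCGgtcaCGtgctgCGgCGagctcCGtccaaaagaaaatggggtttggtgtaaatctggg
The HOXA13 window holds 44 CG dinucleotides and the HOXA7 window 31, so both are above the median of all windows. Their levels in the vector library were 8.71 and 0.0471 FPKM, and both genes share an assembled interval with other genes.

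Between the libraries the levels of HOX genes differed little, which held for most expressed genes as well. The change of a gene is the log2 ratio of its FPKM + 1 in the NFX1 library to that in the vector library. Of the 17 members with at least 1 FPKM in a library, none was 1.5-fold apart, where 0.635% of 11182 expressed genes were (0.42% higher and 0.215% lower in the NFX1 library). Their median change was 0.08, with the highest at 0.37 for HOXB8, against 0.01 over all expressed genes, and 13 were higher in the NFX1 library and 4 lower. Of all expressed genes, 52.0% were higher. The GC content of the 17 transcripts had a median of 55.7%, against 49.6% over all expressed genes, and its part in the change was not tested apart from length and expression. With the trend on GC content, length and expression taken out (the trend-corrected change), the median over the 17 was -0.01, with 7 higher and 10 lower, where 50.1% of expressed genes were higher. Across the 17 genes the change and the GC content had a Spearman correlation of 0.51 and a Pearson correlation of 0.66, given as a description since all values come from the same pair of libraries.

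**Figure D2:**
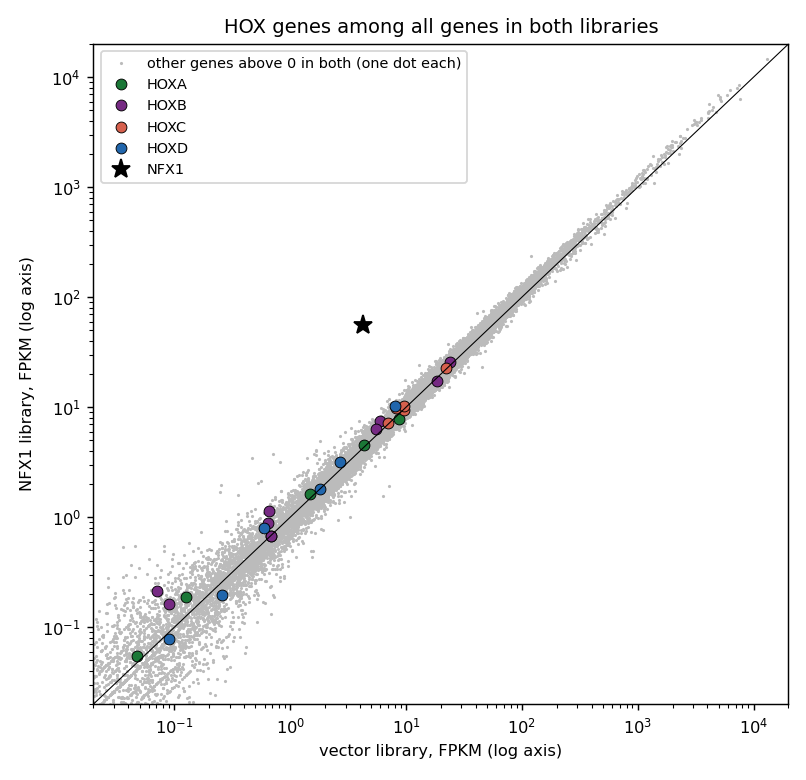
FPKM in the vector library (x, log axis) and the NFX1 library (y, log axis) for all genes above 0 in both (grey) and HOX genes by cluster, with the line of equal values. HOX genes run along the line up to HOXB6 at 23.8 and 25.9 FPKM, while NFX1 stands off it at 4.21 and 56.0 FPKM.

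Counting intervals of the FPKM ratio left out 1 for 8 of these 17 genes, 6 above and 2 below, where they did so for 61.5% of expressed genes. The members' share, 47.1%, is therefore not above that of other genes. HOXB8 had 0.653 FPKM (vector) and 1.14 FPKM (NFX1), from an estimated 38 and 76 fragments, and its ratio of 1.74 had an interval of 1.16 to 2.64. For HOXD9 the ratio was 1.29 (1.15 to 1.45), for HOXB4 1.253 (1.14 to 1.37) and for HOXC12 1.21 (1.12 to 1.32). HOXB9 had a ratio of 1.14 (1.01 to 1.29) and HOXB6 1.09 (1.02 to 1.17). HOXA13 had a ratio below 1, at 0.904 (0.843 to 0.971). The trend-corrected log2 change of HOXB8 was 0.24, that of HOXB4 0.23, that of HOXD13 0.19 and that of HOXD9 0.14, while HOXB6 and HOXA13 stood at -0.01 each. After correction 7 of the 17 were higher and 10 lower. Among the lower ones were HOXC9 at -0.14, HOXD8 at -0.13, HOXB7 at -0.13 and HOXA4 at -0.10.

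**Figure D3:**
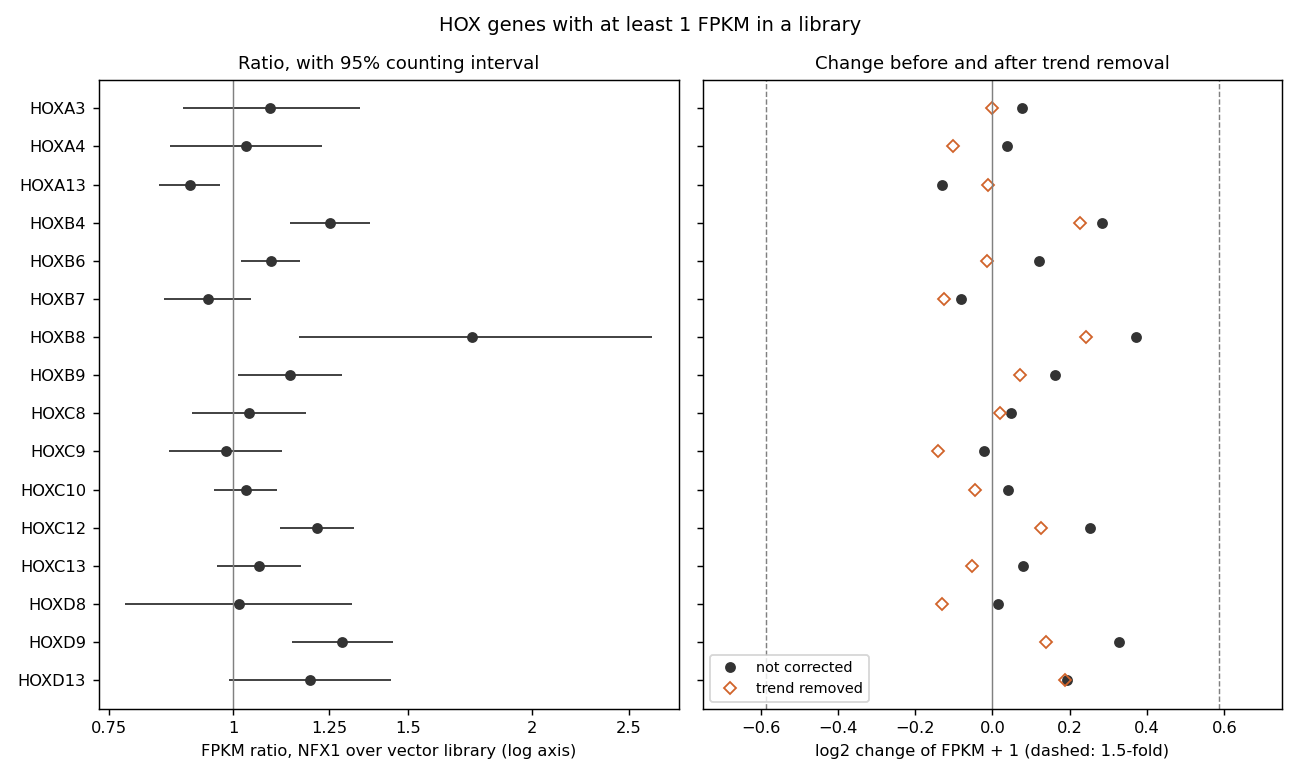
Left, FPKM ratio of the NFX1 over the vector library (log axis) for 16 of the 17 HOX genes, with 95% counting intervals. Right, log2 change of FPKM + 1 without correction (filled) and corrected for the trend (open); all points lie within the dashed 1.5-fold lines, and HOXB8 is the highest at 0.37 and 0.24.

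By cluster, the median change was -0.05 over 4 HOXA genes, 0.16 over 5 HOXB genes, 0.05 over 5 HOXC genes and 0.19 over 3 HOXD genes. The trend-corrected medians were -0.06, 0.07, -0.04 and 0.14. All 4 HOXA genes were then at or below 0, HOXA3 and HOXA13 by no more than 0.011. With so few genes a cluster, these medians are only a description. Of the 22 members that the authors tested, the authors' deposited table marked 0 as significant, where it marked 0.023% of 13069 tested genes. In the authors' deposited table HOXB8 had a log2 fold change of 0.80 and a q-value of 0.999.

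HOXB8 is the best-known target of miR-196, a microRNA that is encoded within the HOX clusters and directs cleavage of HOXB8 mRNA. The mature sequences of miR-196a (RefSeq hosts MIR196A1 in HOXB and MIR196A2 in HOXC) and miR-196b (host MIR196B in HOXA), from GRCh38.p14, are shown with their seed, bases 2 to 8, in capitals. They share that seed. The HOXB8 site in the 3′ UTR of the GENCODE transcript is written as DNA, 5′ to 3′, with bases that pair with miR-196a by Watson-Crick rules in capitals.
miR-196a: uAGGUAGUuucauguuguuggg
miR-196b: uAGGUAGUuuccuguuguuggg
HOXB8 site: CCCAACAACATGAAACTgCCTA
The site pairs at 21 of 22 positions and the remaining one forms a wobble pair. HOXA7 was next among HOX genes, with 15 of 22 paired positions at its best place.

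The seed match ACTACCT, searched on the sense strand, was in the 3′ UTR of 8 of 39 HOX genes (20.5%) and of 6.96% of 19046 genes, with a median 3′ UTR of 856 and 1044 bases. HOXB6, HOXB7 and HOXC8, which were on, and HOXA7, HOXB1 and HOXB13, which were not, were among the 8. HOXB8 was not, since the wobble falls within the seed. The hairpin rows MIR196A1, MIR196B, MIR10A and MIR10B were listed at 0 in both libraries, and MIR196A2 had 0.5002 and 0.335 FPKM. These rows say nothing of the mature microRNAs, which are shorter than a sequenced fragment.

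Related genes were described from lists. Of the TALE cofactors, 6 of 10 with a row had at least 1 FPKM in a library. TGIF1 had 78.6 FPKM (vector) and 71.9 FPKM (NFX1), PBX2 48.7 and 53.0 FPKM and MEIS3 19.4 and 21.3 FPKM. PBX3 had 3.20 and 3.62 FPKM and PKNOX1 1.82 and 1.48 FPKM. MEIS1 and MEIS2, the MEIS genes most studied as HOX partners, lay under 1 FPKM, at 0.244 and 0.270 FPKM and at 0.640 and 0.623 FPKM. The median change of the 6 was 0.08, and -0.03 when corrected for the trend.

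Of Polycomb repressive complex 2, which places the silencing mark on histone H3, all 11 genes were on, with 4 higher and 7 lower in the NFX1 library, a median of -0.12 and none 1.5-fold apart. Its catalytic subunit EZH2 had 9.55 and 10.5 FPKM, EED 9.25 and 7.63 FPKM, PHF19 70.1 and 85.9 FPKM, RBBP7 56.0 and 52.9 FPKM, PHF1 40.4 and 44.8 FPKM, and RBBP4 9.85 and 8.37 FPKM. The trend-corrected median was -0.03. Of Polycomb repressive complex 1, 18 of 18 genes with a row were on, with 13 higher and 5 lower and a median of 0.09, or 0.01 when trend-corrected. PHC2 had 120 and 137 FPKM, RING1 82.5 and 93.4 FPKM, CBX8 38.2 and 41.6 FPKM, PCGF5 33.4 and 33.6 FPKM, and CBX6 24.3 and 27.3 FPKM. None of these was 1.5-fold apart either.

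Of trithorax proteins and other activators of HOX genes, 18 of 19 with a row had at least 1 FPKM in a library, with 10 higher and 8 lower and a median of 0.07. MEN1, which tethers the histone methyltransferase KMT2A, had 37.1 and 42.9 FPKM, CXXC1 34.9 and 42.0 FPKM, and DPY30 41.9 and 37.1 FPKM. WDR5 had 24.3 and 27.7 FPKM, MLLT1 24.1 and 25.5 FPKM, and DOT1L 22.4 and 25.5 FPKM. The trend-corrected median was -0.02, and no gene of the list was 1.5-fold apart.

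Retinoic acid switches on anterior HOX genes through RAR and RXR receptors. Of 18 genes of this pathway, 10 had at least 1 FPKM in a library, with a median change of 0.12 and 7 higher, and a trend-corrected median of -0.03. RDH10, which makes retinaldehyde, had 115 FPKM (vector) and 90.2 FPKM (NFX1), and CYP26A1, which degrades retinoic acid, 23.1 and 18.7 FPKM, with log2 changes of -0.35 and -0.28 (trend-corrected, -0.35 and -0.31). The receptors RXRB, RXRA and RARG had 28.99 and 34.9, 17.8 and 20.9, and 13.3 and 15.0 FPKM. DHRS3 had 44.5 and 47.6 FPKM.

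Of 11 ParaHox and HOX-linked homeobox genes, 2 were on. CDX2, an intestinal factor that acts on HOX genes, had 1.29 and 2.13 FPKM, with a log2 change of 0.45 (trend-corrected, 0.37). MNX1 had 3.68 and 4.66 FPKM. EVX1 and EVX2, which adjoin HOXA13 and HOXD13, had 0.668 and 0.967 FPKM and 0.562 and 0.584 FPKM.

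**Figure D4:**
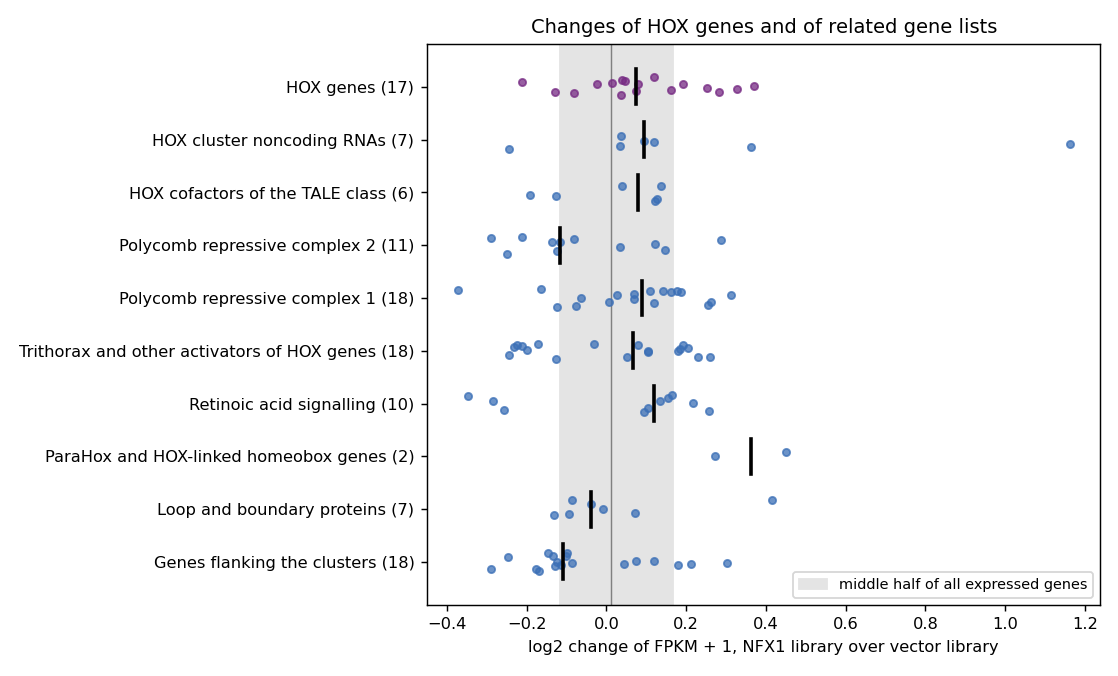
Log2 change of FPKM + 1 (NFX1 over vector library) of HOX genes and of each list of related genes, 1 point a gene with at least 1 FPKM in a library and a bar at the median; numbers of genes are in parentheses. The grey band is the interquartile range of all expressed genes, from -0.12 to 0.17, and the point farthest from 0 is HOXC-AS3, listed at 0 in the vector library.

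Loop and boundary proteins, which divide HOX clusters into active and silent parts, had a median of -0.04 over 7 genes, which turned to 0.05 when corrected for the trend. CTCF had 14.003 and 12.7 FPKM, RAD21 27.1 and 25.3 FPKM, SMC1A 8.58 and 8.33 FPKM, STAG2 6.74 and 6.29 FPKM, STAG1 6.24 and 6.197 FPKM, and MAZ 188 and 251 FPKM. MAZ had a log2 change of 0.41, and 0.16 when trend-corrected. Of genes flanking the clusters, 18 of 26 with a row were on, with a median of -0.11 (trend-corrected, -0.06) and none 1.5-fold apart. HNRNPA1 and COPZ1 near HOXC had 336 and 353 FPKM and 149 and 169 FPKM, SMUG1 35.7 and 31.6 FPKM, NFE2L1 near HOXB 111 and 115 FPKM, and ATP5G3 and HNRNPA3 near HOXD 94.4 and 109 FPKM and 38.7 and 36.4 FPKM. Between HOXB9 and HOXB13, PRAC1 and PRAC2 were listed at 0, next to HOXB13 at 0.0890 and 0.164 FPKM. HNRNPA1 and HNRNPA3 have near-identical pseudogenes, so their values are uncertain.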

How the data were processed

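RNA of 1 vector and 1 NFX1 library was analysed, with groups from the genotype labels. Named in the submitters' processing notes are the build hg19 and the tools Cufflinks 2.2.1 and TopHat2 2.1.0. Annotation, settings and strand are not given in the sources used here. Per the file headers, each gene's deposited values are an FPKM in either library and the authors' log2 fold change, test statistic (a score), p-value and q-value. FPKM depends on assumed transcript lengths. Starts of intervals, which overlapping genes share, were converted to count from 1.

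Rows with a single symbol were used, the one with the highest mean where a symbol repeats. The change was log2((NFX1 FPKM + 1)/(vector FPKM + 1)). The worth of 1 fragment came from the most common ratio of 2950 rows low in both libraries and from 1984 genes with a single GENCODE transcript, with 260 bp subtracted from lengths. Fragments of a HOX gene used its longest protein-coding transcript; a wrong length changes interval widths. Cubic splines on GC content, length and expression gave the trend, for 95.0% of expressed genes. Steps were tested on simulated libraries. Named were every HOX gene on in a library, those below 1 FPKM, shared rows, and of each list those 1.5-fold apart and up to 6 by level; further genes were named after their values were seen. A few items are not reported here. Members and lists were chosen with earlier results of these data known. Alternatives covered the pseudocount, scaling, filter, row choice and limits. The tools were scikit-learn 1.9.0, scipy 1.17.1, matplotlib 3.10.9, pandas 2.3.3, numpy 2.4.6 and Python 3.11.15.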

Additional observations from a re-analysis of the deposited data

How the results depend on the processing

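No paired analysis was possible because each group has 1 library. The count of HOX genes on in both libraries was 16 with the NFX1 library rescaled and with rows of a symbol summed, 21 at a limit of 0.5 FPKM and 12 at 5 FPKM. No HOX gene was 1.5-fold apart under a pseudocount of 5, rescaling, trend removal or the other filters, while 1 (HOXB8) was with a pseudocount of 0.1, and 3 were 1.2-fold apart. The median change was 0.025 with shared rows counted for each of their genes and turned to -0.011 after trend removal; under the other settings it was between 0.03 and 0.09. Trend removal also turned the medians of TALE cofactors (-0.028), activators (-0.022), retinoic acid genes (-0.026) and loop proteins (0.051), and the sign of 6 of the 17 HOX genes. Low fragment numbers limit the genes under 0.3 FPKM most.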
